A study of Caenorhabditis elegans with 2 samples.

Results

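Cytosolic ribosomal protein genes were examined for regions called in chromatin immunoprecipitation of the tagged protein T23F11.4 from late embryos of Caenorhabditis elegans. The 82 genes were taken by name from the 19973 nuclear protein-coding genes of Ensembl (WBcel235): those called rpl, rps, rla or ubl followed by a number. For each gene the strongest region with its summit within 1000 bp of any transcript start was taken from the list called on the pooled replicates and from the list of each replicate. A gene was counted as having an optimal peak where the authors' optimal set, filtered by the irreproducible discovery rate, held a summit within that distance.

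The samples were 2 biological replicates of 1 group, so no condition was compared with another. Chromatin came from strain OP709, which carries the mutation unc-119(tm4063). Its transgene, wgIs709, holds T23F11.4 with the tags TY1, EGFP and 3xFLAG at its C-terminus and, beside it, the intact marker unc-119(+), and the protein was precipitated through its green fluorescent tag. The embryos, aged 4 hours per the labels, came from bleached mixed-sex worms, and whole embryos were used, so a region can come from any cell type. The sources used here do not give the regulatory sequence that drives the transgene or the state of the native gene. The control experiment that the labels point to was not analysed here. Within 5000 bp of the T23F11.4 gene itself lay 4 optimal peaks, the strongest with a signal of 696.9 (rank 5 of the pooled list).

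The eukaryotic ribosome has a large subunit, which forms peptide bonds, and a small subunit, which decodes the messenger RNA. Their proteins are needed in near-equal amounts, and their genes are among the most strongly transcribed in growing tissue. Some genes of this family carry small nucleolar RNA (snoRNA) genes in their introns, whose products guide the modification of ribosomal RNA. In C. elegans many transcripts are trans-spliced to a short leader, so an annotated start can lie downstream of the position where transcription begins.

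The name rule took in 48 genes of the large subunit (the rpl genes and the stalk genes rla-0, rla-1 and rla-2), 32 of the small subunit (the rps genes and ubl-1, which encodes ubiquitin joined to a small subunit protein), and 2 others. These others are ubl-5, which encodes a ubiquitin-like protein, and rpl-24.2, a relative of the yeast ribosome assembly factor Rlp24. They were kept because the rule names them, which left 80 ribosomal protein genes in the strict sense.

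An optimal peak lay within 1000 bp of a start at 13 of the 82 genes (15.9%), against 2.34% of all nuclear protein-coding genes. Of these, 7 belong to the large subunit (14.6% of 48) and 5 to the small subunit (15.6% of 32), and the last is rpl-24.2. No other gene of the family had one, and the pooled region at ubl-5 had a signal of 69.8 (rank 3848). Another 59 genes had a weaker region in the pooled list, 7 had one in a replicate list alone, and 3 had none in any list.

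The sequences around optimal summits are given first, since some of the summits share short words with each other. Each line runs 5′ to 3′ along the strand of the gene and covers 151 bases centred on the summit, from the WBcel235 assembly (ce11). Of the 13 summits 8 are shown, all with a window that overlaps no annotated untranslated region. The summits not shown are those of rps-19, rpl-27, rpl-24.2, rps-26 and rpl-12. Capitals mark 5 words of 7 letters on either strand. They are the words GGCCTAA, then CTACGGT, then CGAGTGT, then AGTGTAT and, as the last, CGACGCA. Copies of CGAGTGT and of AGTGTAT can overlap by the letters AGTGT. Of the 13 summits, those of rps-19 and rps-26 hold none of the 5 words.
rpl-3 (chrIII:3867502-3867652, plus strand): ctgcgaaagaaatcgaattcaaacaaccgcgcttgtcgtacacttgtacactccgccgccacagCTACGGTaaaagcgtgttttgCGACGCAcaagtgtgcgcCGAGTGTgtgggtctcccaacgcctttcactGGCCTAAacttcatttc
rpl-35 (chrIII:7854608-7854758, plus strand): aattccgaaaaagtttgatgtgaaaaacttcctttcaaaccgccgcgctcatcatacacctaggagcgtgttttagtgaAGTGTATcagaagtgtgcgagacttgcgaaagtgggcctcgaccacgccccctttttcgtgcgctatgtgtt
rpl-20 (chrIV:4749972-4750122, minus strand): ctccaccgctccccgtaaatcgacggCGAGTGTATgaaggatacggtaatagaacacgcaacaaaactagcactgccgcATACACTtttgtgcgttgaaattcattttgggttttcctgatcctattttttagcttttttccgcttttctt
rps-28 (chrIV:1659174-1659324, plus strand): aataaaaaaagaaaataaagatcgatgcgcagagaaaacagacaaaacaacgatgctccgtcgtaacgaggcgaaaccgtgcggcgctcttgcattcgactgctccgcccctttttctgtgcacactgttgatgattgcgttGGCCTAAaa
rpl-15 (chrIV:654837-654987, minus strand): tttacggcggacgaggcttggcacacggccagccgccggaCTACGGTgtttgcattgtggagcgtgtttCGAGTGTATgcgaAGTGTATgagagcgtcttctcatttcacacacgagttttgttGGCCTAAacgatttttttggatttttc
rps-1 (chrIII:4475622-4475772, plus strand): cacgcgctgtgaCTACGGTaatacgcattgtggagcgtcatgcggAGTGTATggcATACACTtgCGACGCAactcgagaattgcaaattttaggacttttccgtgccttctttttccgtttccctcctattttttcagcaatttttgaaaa
rpl-7A (chrIV:4390593-4390743, minus strand): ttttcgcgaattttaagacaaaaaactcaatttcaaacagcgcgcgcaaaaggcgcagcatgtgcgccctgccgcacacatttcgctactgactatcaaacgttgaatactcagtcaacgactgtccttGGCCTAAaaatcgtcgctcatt
rps-23 (chrIV:12391204-12391354, minus strand): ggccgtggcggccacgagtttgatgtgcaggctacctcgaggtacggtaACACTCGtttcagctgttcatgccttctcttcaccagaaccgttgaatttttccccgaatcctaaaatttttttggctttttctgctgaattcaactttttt

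Each region carries a signal value computed by the authors, which served here to rank regions within 1 list. Ranks are among the 29999 nuclear regions of the pooled list, 29994 of replicate 1 and 25794 of replicate 2. The lists differ in scale, so a value in replicate 1 cannot be set against one in replicate 2. The lists hold no read counts, which leaves the depth unknown and gives no counting error.

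Among genes of the large subunit, rpl-3 stood first by a wide margin. It encodes a core protein next to the peptidyl transferase centre. Its peak at chrIII:3867466-3867700 had a pooled signal of 526.6, rank 12, with 199.7 in replicate 1 (rank 13) and 321.5 in replicate 2 (rank 12). The next large subunit gene, rpl-35, whose product lies at the exit of the peptide tunnel, had 244.3 in the pooled list (rank 106), 66.4 in replicate 1 and 174.0 in replicate 2, at chrIII:7854461-7854904. The pooled signal at rpl-3 was thus more than 200 units above that of any other gene of the family.

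The gene rpl-20 had 227.5 in the pooled list (rank 127), 71.8 in replicate 1 and 163.2 in replicate 2. The gene rpl-15 had 208.6 (rank 153), 80.4 in replicate 1 and 126.3 in replicate 2. Both encode proteins of the large subunit, and both ranked among the 200 strongest regions in each replicate. The peak counted for rpl-27, with 173.2 pooled (rank 233), 62.7 in replicate 1 and 115.5 in replicate 2, lay past the end of that gene. The summit was 748 bp downstream of the rpl-27 start and 30 bp from the start of egl-30, which encodes a G protein alpha subunit.

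Weaker optimal peaks of the large subunit lay at rpl-12, which encodes a protein at the base of the stalk, and at rpl-7A. At rpl-12 the pooled signal was 130.8 (rank 462), with 39.4 in replicate 1 (rank 1205) and 90.4 in replicate 2 (rank 391). For rpl-7A the pooled signal was 124.4 (rank 521), with 54.7 in replicate 1 (rank 371) and 68.4 in replicate 2 (rank 892). Each of these genes was thus inside the 635 strongest regions, the size of the nuclear optimal set, in 1 replicate and outside it in the other.

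In the small subunit, rps-28 and rps-19 carried the strongest peaks. The human relative of rps-19 is known as a gene mutated in Diamond-Blackfan anaemia. The gene rps-28 had 224.0 in the pooled list (rank 134), 68.2 in replicate 1 and 157.9 in replicate 2. The gene rps-19 had 209.9 (rank 151), 76.4 in replicate 1 and 131.3 in replicate 2. Both were inside the 635 strongest regions of each replicate.

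The other small subunit genes with an optimal peak were rps-1, rps-26 and rps-23. Pooled signal at rps-1 was 153.5 (rank 296), with 43.2 in replicate 1 (rank 833) and 106.3 in replicate 2 (rank 261). At rps-26, whose product lies near the messenger RNA exit channel, it was 142.8 (rank 346), with 43.8 in replicate 1 (rank 781) and 98.1 in replicate 2 (rank 312). At rps-23, whose product helps to keep decoding accurate, it was 120.7 (rank 569), with 42.3 in replicate 1 (rank 908) and 73.5 in replicate 2 (rank 711). None of these was among the 635 strongest regions of replicate 1, and rps-23 was outside that number in replicate 2 as well.

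The remaining optimal peak lay at rpl-24.2, with a pooled signal of 163.8 (rank 259), 71.8 in replicate 1 (rank 193) and 89.6 in replicate 2 (rank 398). Of all 13 genes, 8 were among the 635 strongest regions of both replicates, 9 in replicate 1 and 11 in replicate 2. Counted over the whole family without the optimal set, 11 genes (13.4%) reached those 635 regions in replicate 1 and 12 (14.6%) in replicate 2. The shares of all coding genes were 2.18% and 2.28%. In both replicates at once it was 8 genes (9.76%), against 1.42% of all coding genes. The optimal set was made from these same reads, so the replicates are no independent check of it.

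Of the genes without an optimal peak, 3 reached the 635 strongest regions in 1 replicate. The pair rpl-24.1 and rps-10, which are transcribed away from each other and share 1 region, had 57.8 in replicate 1, at rank 330, but 39.6 in replicate 2, at rank 7645. The gene rpl-11.2, which encodes a protein that contacts 5S ribosomal RNA, ranked 2877 with 32.4 in replicate 1 and 492 with 83.7 in replicate 2. Its pooled signal of 115.0 (rank 647) was just under 115.7, the lowest value in the nuclear optimal set.

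**Figure D1:**
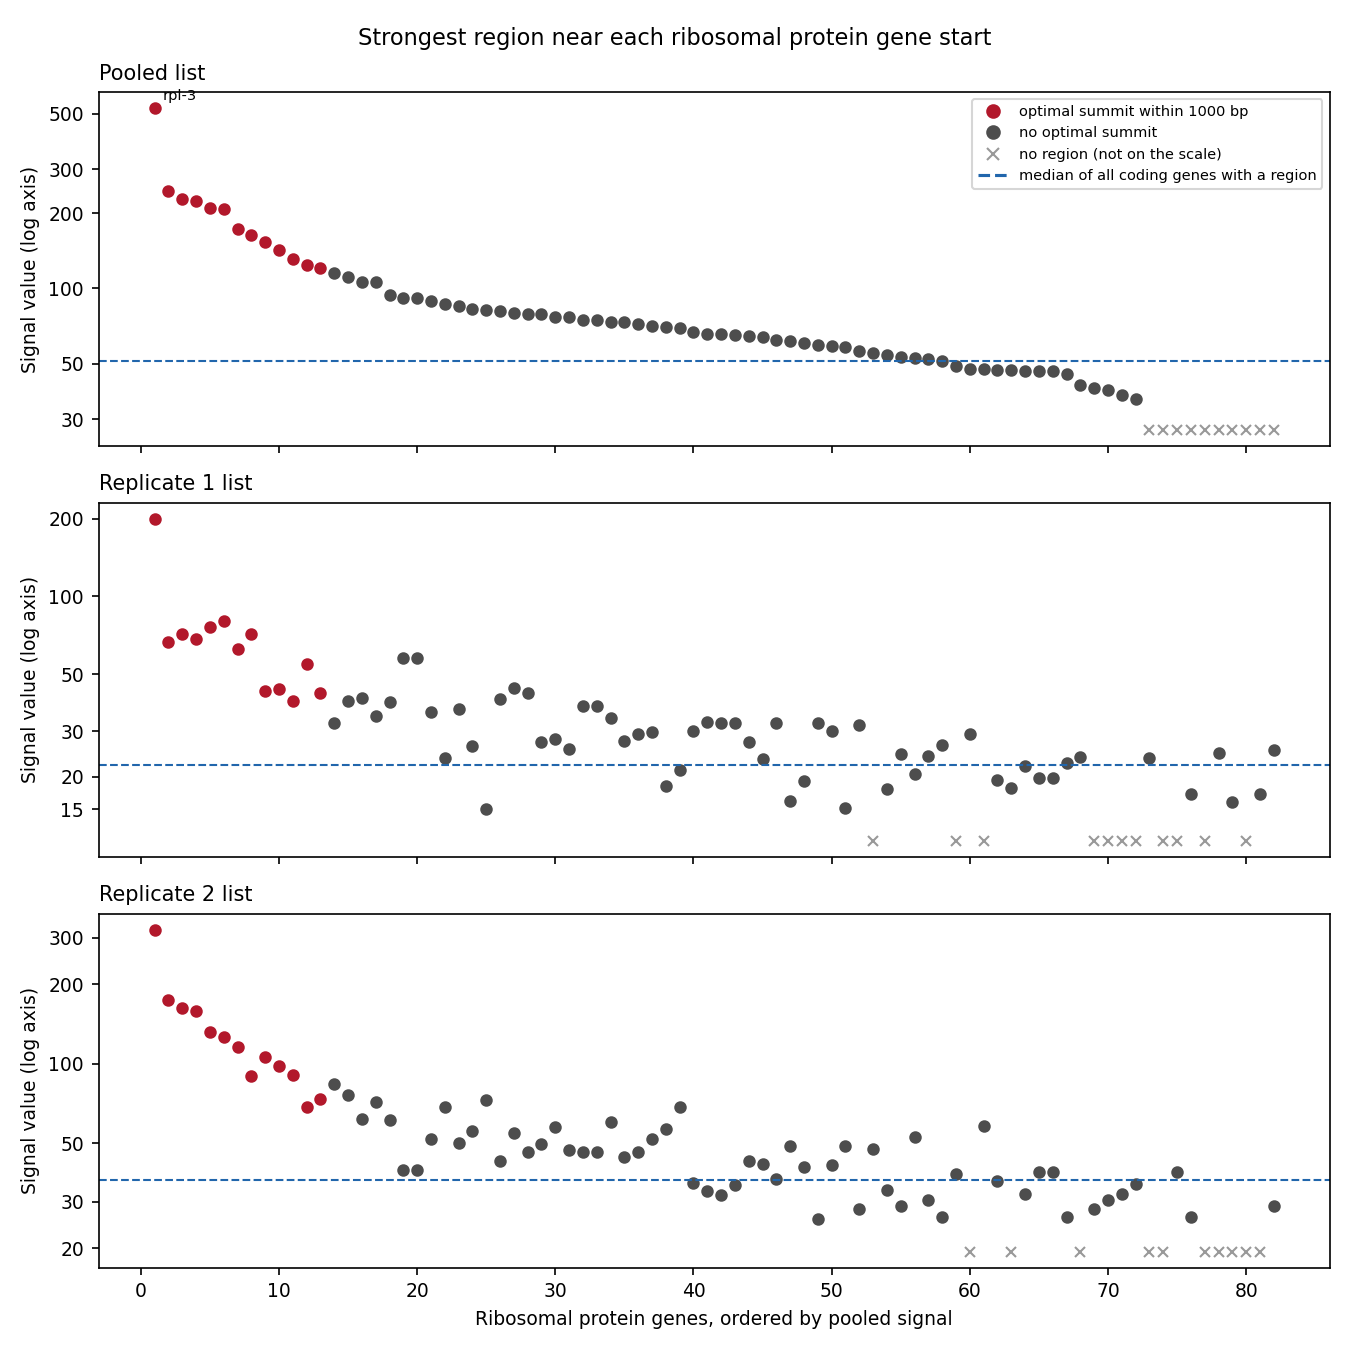
Signal value (log axis) of the strongest region within 1000 bp of a start for each of the 82 genes in the pooled list and each replicate, ordered by pooled signal. Red points are the 13 genes with an optimal peak, grey points the rest, crosses genes with no region, and dashed lines the median over all coding genes with a region. The point at rpl-3 stands apart in all panels.

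The other strong regions without an optimal summit followed closely. Pooled signal was 111.3 at rps-24 (rank 716), 106.5 at rps-12 (rank 801), 106.1 at rpl-32 (rank 813) and 94.3 at rps-20 (rank 1159), and 91.2 at the region that rpl-24.1 and rps-10 share (rank 1306). Each of these genes encodes a protein of 1 of the subunits. In the replicates, rps-24 had 39.3 and 75.8, rps-12 had 40.5 and 62.0, rpl-32 had 34.3 and 71.9, and rps-20 had 39.1 and 61.2, in replicate 1 and replicate 2. The replicate 1 value at rps-20 came from another site, 800 bp downstream of its start. The family thus passed through the limit of the optimal set without a gap in signal.

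Over the whole family, 72 of the 82 genes (87.8%) had a pooled region of any strength near a start, against 51.7% of all coding genes. The pooled list holds background as well as peaks, so such a region need not be a bound site. The 72 genes shared 69 regions, since the pairs rpl-24.1 and rps-10, rpl-39 and rps-30, and rpl-41.1 and rpl-41.2 each had the same one. In replicate 1 it was 71 genes (86.6%, against 51.1%) and in replicate 2 72 genes (87.8%, against 46.9%). Median pooled signal of the strongest region was 71.5 for the 72 genes (interquartile range 53.8 to 92.0) and 51.4 for the 10333 coding genes with a region (42.6 to 65.7). Of the 72, 41 (56.9%) reached 65.7, the 75th percentile of those coding genes.

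In the replicates the medians were 30.2 for the family and 22.2 for all coding genes (replicate 1), and 46.9 and 36.3 (replicate 2). The ratio of the family's median to that of all coding genes was 1.39 in the pooled list, 1.36 in replicate 1 and 1.29 in replicate 2. No test was made between the family and other genes, because the family was chosen with earlier results known. The subunits overlapped in signal, with medians of 72.3 for 41 large subunit genes and 66.8 for 29 small subunit genes and interquartile ranges of 53.9 to 88.9 and 53.3 to 94.3.

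At the low end, 10 genes had no pooled region near a start. Of these, rla-2, which encodes an acidic stalk protein, rpl-37 and rps-0 had none in any list. The genes rla-1, rpl-38, rpl-42 and rps-21 had a region in replicate 1 alone, and rpl-28 in replicate 2 alone. The gene rpl-29 ranked 22740 in replicate 1 and 24503 in replicate 2, and rps-3 ranked 7647 in replicate 1 and 19797 in replicate 2. The best of these ranks was 7647, far from the 635 strongest regions of either list. Of the stalk genes, rla-0 alone had a pooled region, with a signal of 53.9 that ranked 9998. Its summit was nearest to the start of tct-1, and no stalk gene had an optimal peak. Over all coding genes, 467 had an optimal peak and 467 had 1 of the 635 strongest pooled regions. Absence from the optimal set thus reflects a limit on pooled signal, so it does not show that a gene was unbound.

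Across the 64 genes with a region in both replicates, Pearson's r of log2 signal was 0.698 and Spearman's rho 0.546. Across 6754 coding genes they were 0.641 and 0.422. Genes with an optimal peak were selected for high pooled signal, and leaving them out narrows the range. Without them, r was 0.115 and rho 0.167 across 51 genes of the family, and 0.326 and 0.296 across 6288 coding genes. These are descriptions across genes, which share the same libraries and control experiment and are not independent replicates. At all 13 genes with an optimal peak the strongest replicate summits lay close to the pooled one, at most 87 bp away in replicate 1 and 53 bp in replicate 2. Of the 64 genes, 32 (50%) had their replicate summits within 100 bp of each other, against 39.6% of coding genes. Without the genes that have an optimal peak it was 19 of 51 (37.3%), against 36% of coding genes.

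**Figure D2:**
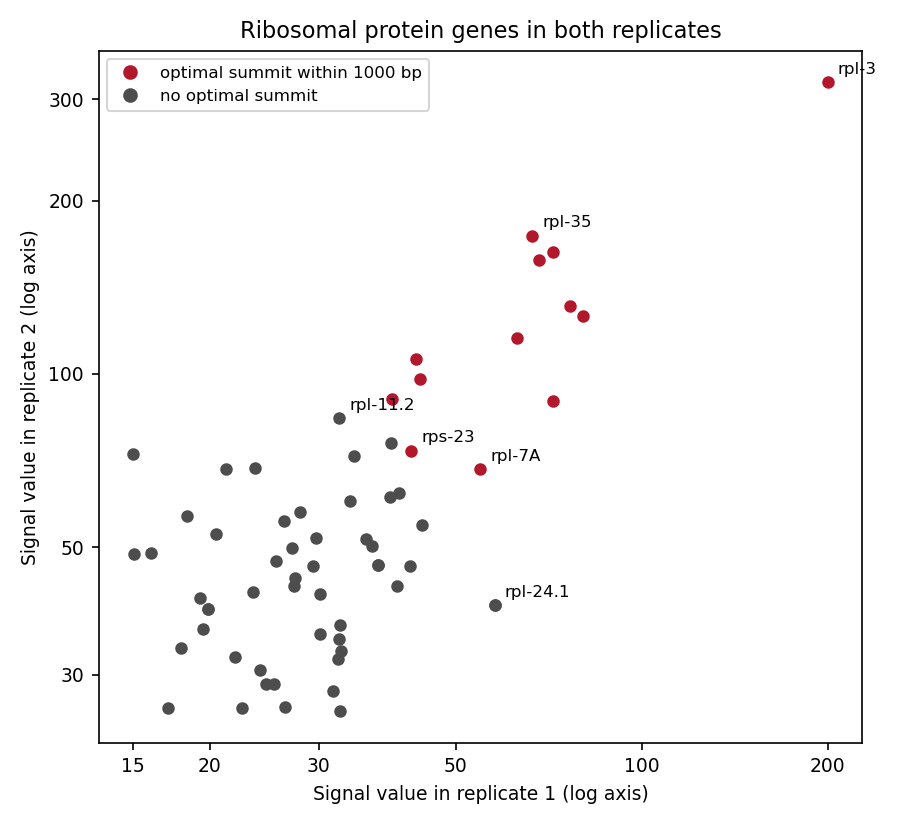
Signal value of the strongest region in replicate 1 (x) and replicate 2 (y), both on log axes, for the 64 genes with a region in each. Red points are genes with an optimal peak and grey points the rest. The red points run along a diagonal up to rpl-3, while the grey ones form a cloud.

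The regions were concentrated upstream of the genes. Of the 13 optimal summits, 11 lay upstream of the gene, with a median position of -269 bp from the nearest start and a range of -451 bp to 748 bp. The exceptions were rpl-12, where the summit was 12 bp inside the gene, and rpl-27. Over the 467 coding genes with an optimal summit, 82.7% had it upstream of the nearest start, against 84.6% of the 13. The median position over the 467 was -242 bp, so lying upstream was not particular to the family. Between 100 and 500 bp upstream lay 10 of the 13 (76.9%), against 50.3% of the 467 coding genes with an optimal summit. The strong peaks at rpl-3, rpl-35, rpl-20 and rps-28 lay 277, 451, 269 and 442 bp upstream.

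The same position was seen among all 72 genes with a pooled region. Their median position was -228.5 bp, against -54 bp over the 10333 coding genes. The band of 100 to 500 bp upstream held 39 of the 72 (54.2%), against 25.2% of those coding genes. In replicate 1 alone it held 54.9% of the family and 24.3% of coding genes, and in replicate 2 47.2% and 25.4%. Of the 59 genes with a pooled region but no optimal peak, 29 (49.2%) had it in this band. The family's share in this band was thus above that of all coding genes in the pooled list and in each replicate, and was above 50% in the pooled list and in replicate 1 but not in replicate 2.

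**Figure D3:**
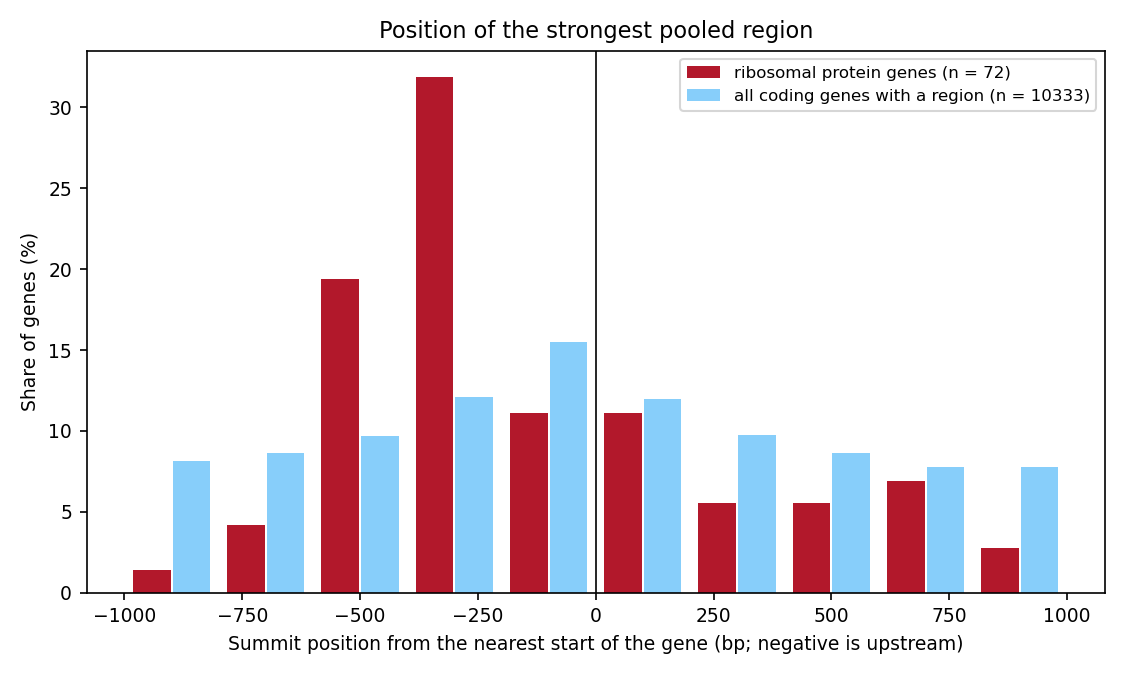
Share of genes (%) by the position of the summit of their strongest pooled region from the nearest start, in bins of 200 bp, negative values being upstream. Red bars are the 72 ribosomal protein genes with a region and blue bars the 10333 coding genes with one. Between 400 and 200 bp upstream lay 31.9% of the family and 12.1% of coding genes.

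The distance allowed between summit and start sets how many genes are counted. An optimal summit lay within 200 bp of a start at 3 of the 82 genes (against 0.701% of all coding genes). Within 500 bp it was 12 (against 1.56%) and within 2000 bp 14 (against 3.51%). A pooled region of any strength lay within 200 bp at 20 of the 82 genes (against 18.7% of all coding genes). Within 500 bp it was 58 (against 35.5%) and within 2000 bp 78 (against 69.6%). With only the 317 strongest optimal peaks, 9 genes of the family had one within 1000 bp, against 1.17% of coding genes. The family's count thus changed most between 200 and 500 bp.

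Many of these peaks lie near the starts of 2 genes. At 10 of the 13 genes another coding gene had a start within 1000 bp of the optimal summit. The same share over all coding genes with an optimal summit was not computed, so this count is not shown to be particular to the family. With each summit given only to the coding gene whose start is nearest, 9 of the 82 genes had an optimal peak, against 1.72% of all coding genes. The peak at rpl-12 lay 405 bp from the start of lin-54, which encodes a DNA-binding protein of the cell cycle complex DREAM. That of rps-1 was 547 bp from ifet-1, a translational repressor gene, and that of rps-23 308 bp from dpm-3. At rpl-7A the start of set-21 was 176 bp away, at rpl-15 that of K11H12.8 was 478 bp away and at rps-28 that of Y41D4B.4 was 861 bp away.

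For 4 genes the other start was the nearer one. These were egl-30 for rpl-27, tmem-107 for rps-26 (22 bp), hsr-9 for rps-19 (171 bp) and Y17G9B.5 for rpl-20 (193 bp). The gene C53H9.4 also had a start 149 bp from the peak counted for rpl-27. A peak in such a shared stretch cannot be assigned to 1 of the genes from these lists. Only rpl-3, rpl-35 and rpl-24.2 had an optimal peak with no other coding start within 1000 bp.

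A coding gene on the other strand started within 1000 bp upstream of 47 of the 82 genes, and 8 of these (17.0%) had an optimal peak, against 5 of the other 35 (14.3%). Another 10 genes of the family had a coding gene on the same strand that ended within 500 bp upstream, and 1 of them, rpl-27, had an optimal peak. One such gene, rps-16, named here after its values were seen, follows fib-1, which encodes the nucleolar methyltransferase fibrillarin and ends 110 bp upstream. An optimal peak lay at -155 bp from the start of fib-1 (signal 128.2, rank 482), while the strongest region within 1000 bp of the rps-16 start had 59.0 (rank 7359).

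By chromosome, optimal peaks were found at 6 of 18 genes on IV, 4 of 26 on I and 3 of 19 on III. None was found at the 9 genes on II, the 8 on V or the 2 on X. Over these 3 chromosomes the strongest was rpl-11.2 on X, at 115.0. With so few genes per chromosome, and no such counts made over all coding genes, these counts were not compared further.

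Small RNA genes were looked for beside the summits, since snoRNA and tRNA genes lie near many peaks of this protein. In the family, 14 genes hold 21 snoRNA genes and none holds a tRNA gene. An optimal peak was found at 3 of the 14 (21.4%), rpl-15, rpl-7A and rps-23, and at 10 of the other 68 (14.7%). Median pooled signal was 69.7 over the 14 genes with a snoRNA gene and 71.5 over the 58 others with a region. No strongest pooled summit lay inside a snoRNA gene of the family. Of the 14, 12 lay upstream of the nearest start of the ribosomal protein gene, as did 37 of the 58 in genes without a snoRNA gene.

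Within 500 bp of a snoRNA gene lay 2 of the 13 optimal summits, and none was that close to a tRNA gene. Of all 635 nuclear optimal summits, 32.3% were within 500 bp of 1 or the other, but these 635 were not limited to summits near coding starts. The snoRNA gene Y24D9A.9, inside rpl-7A, was 360 bp from the summit. F39B2.14, outside rps-26, was 83 bp from the summit counted there. At weaker regions, snoRNA genes lay within 500 bp of the summits at rpl-26 (F28C6.11, 142 bp), rps-12 (F54E7.10, 188 bp), rpl-2 (B0250.19, 133 bp), rpl-4 (B0041.9, 346 bp), ubl-1 (H06I04.9, 388 bp), and rpl-24.1 with rps-10 (D1007.20, 488 bp). Without summits near snoRNA or tRNA genes, 11 of the 82 genes had an optimal peak instead of 13. Among all coding genes the number went from 467 to 378 (1.89%).

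Words shared between the sequences printed above were then counted. Words of 7 letters were listed that occurred, on either strand, within 75 bp of at least 4 of the 13 optimal summits and of at most 3% of all pooled summits, which gave 15. The 5 marked words were picked from these by hand after their counts were seen. The 15 words overlap each other, and their counts at the 13 summits were fixed by the choice, which was made after seeing the sequences. The sites at which they were counted next, the 500 bp upstream of the 69 genes without an optimal peak, did not enter the listing of the 15 words. The hand pick of the 5 came after counts were seen, so the counts of these 5 at those sites are no independent check.

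GGCCTAA, or TTAGGCC on the other strand, was near the summits of rpl-3, rpl-15, rps-28 and rpl-7A. It was found upstream of 18 of the 69 other genes (26.1%) and of 2.93% of all coding genes. CTACGGT, near the summits of rpl-3, rpl-15, rps-1 and rpl-27, was upstream of 12 of the 69 (17.4%) and of 2.57% of coding genes. CGAGTGT, near those of rpl-3, rpl-15, rpl-20, rps-23 and rpl-24.2, was upstream of 12 of the 69 (17.4%) and of 2.63% of coding genes. These words thus occurred upstream of ribosomal protein genes with and without an optimal peak.

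The remaining marked words are AGTGTAT and the word CGACGCA. The word AGTGTAT lay near the summits of rpl-15, rpl-20, rpl-35 and rps-1, and upstream of 0 of the 69 other genes and 5.45% of coding genes. CGACGCA lay near those of rpl-3, rps-1, rpl-12 and rpl-24.2, and upstream of 0 of the 69 and 2% of coding genes. For CGACGCA a count of 0 among 69 genes is near that background. Of the 15 words, 8 had a higher share among the 69 genes than among all coding genes, and 3 were upstream of none of the 69. Among all 635 optimal summits the 5 printed words were within 75 bp of 1.26% (CTACGGT) to 3.62% (CGAGTGT), and among all pooled summits of 0.733% (CTACGGT) to 1.51% (GGCCTAA and AGTGTAT). A match is a description of the sequence and not a binding site.

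Further words were chosen from general knowledge of promoters and searched on both strands, none contained in another. In the window of 250 bp before to 50 bp after the outermost start, a run of 7 T (TTTTTTT) was in 58.5% of the family and 52.3% of all coding genes. TATAAA, a form of the TATA box, was in 26.8% and 38%. TTCGAAT, part of the B box of tRNA genes, was in 13.4% and 9.03%. GGGCGG was in 3.66% and 7.87%, and CTGCGTC in 1.22% and 4.34%. Within 100 bp of the 13 optimal summits, TTTTTTT occurred at 7, GGGCGG at 2, TATAAA at 1, and CTGCGTC and TTCGAAT at 0. Among all optimal summits the shares were 20% for TTTTTTT, 17.3% for GGGCGG, 12.9% for TATAAA, 9.29% for CTGCGTC and 8.03% for TTCGAAT.

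GC content over 151 bp had a median of 46.4% at the 13 summits (43% to 64.2%). It was 49% at all optimal summits and 41.1% at all pooled ones.

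Other genes of the translation apparatus were set beside the family, each list by gene name. An optimal peak was found at 5 of 39 initiation and elongation factor genes (12.8%), 1 of 17 ribosome biogenesis genes (5.88%), 1 of 31 aminoacyl-tRNA synthetase genes (3.23%) and 2 of 69 mitochondrial ribosomal protein genes (2.9%). In the mitochondrial list the share was close to the 2.34% of all coding genes. Median pooled signal was 65.4 for the factor genes, 51.2 for the biogenesis genes, 50.5 for the synthetase genes and 53.6 for the mitochondrial list, against 71.5 for the cytosolic family and 51.4 for all coding genes. No test between the lists was made.

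The factor genes with the strongest peaks were eif-3.C (200.5), iff-2 (189.2), eif-3.E (138.3) and eif-3.I (132.7). Those named eif-3 encode subunits of an initiation factor that binds the small ribosomal subunit, and iff-2 encodes a form of the factor eIF5A. The synthetase gene was ears-2 (378.2, rank 31), whose summit lay 30 bp upstream of its start, and the biogenesis gene was fib-1. In the mitochondrial list they were mrpl-23 (235.3) and mrpl-15 (126.1), and the summit counted for mrpl-23 fell inside the RNA gene T08B2.13. Of the ribosome-associated genes that the name rule misses, ubq-2, a ubiquitin fusion with a large subunit protein, had a pooled region of 78.3 (rank 2450), and rack-1 had none.

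**Figure D4:**
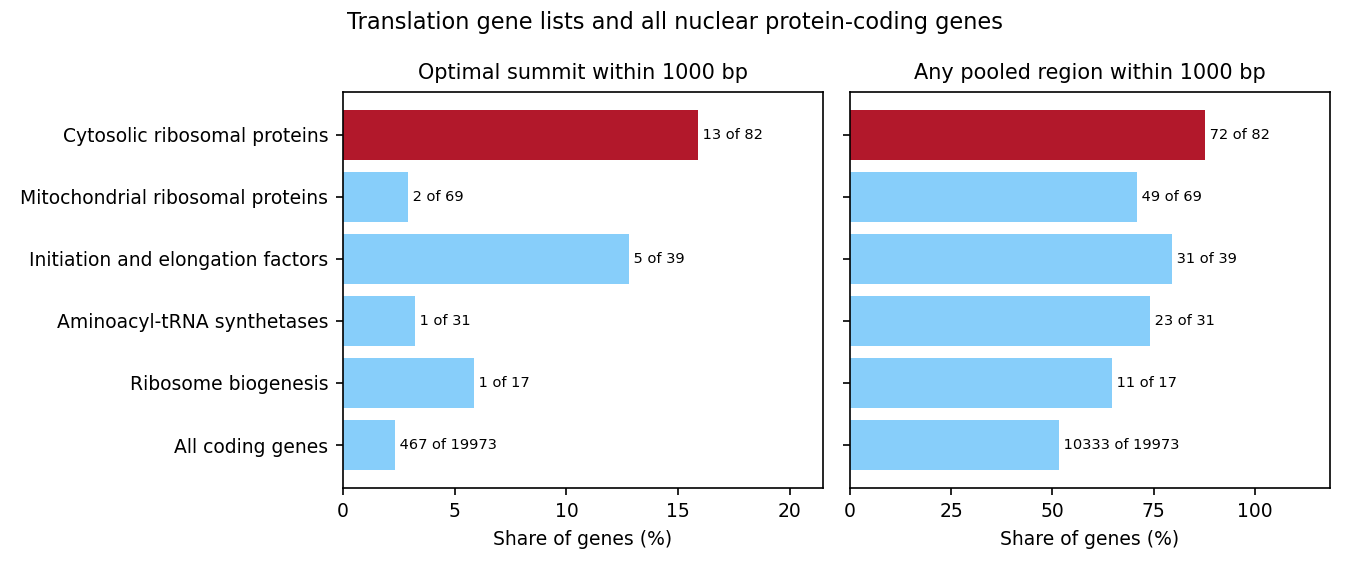
Share of genes (%) with an optimal summit (left) and with any pooled region (right) within 1000 bp of a start, for the cytosolic ribosomal protein genes (red), other translation lists and all nuclear protein-coding genes (blue). The numbers beside the bars are genes with such a region of all genes in the list. The family stands at 15.9% on the left and 87.8% on the right.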

How the data were processed

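Peak lists from chromatin immunoprecipitation and sequencing were used as the authors deposited them. Per the labels and the deposited notes, coordinates are in ce11, and each replicate list and the pooled list were made from alignments and a control without a threshold. By its title the pooled list holds peaks and background. The pooled list and that of replicate 1 each hold 30000 regions with the mitochondrial ones, and that of replicate 2 holds 25802. Such an equal, round number points to a limit on list length, so a gene without a region may have a weaker one. Neither the labels nor these notes name the aligner, the peak caller or the threshold of the discovery rate. The signal value per region (column 7) was computed by the authors. The −log10 q-value per region, also deposited by the authors, was not used. Mitochondrial regions were dropped, 1 of them optimal, which left 635 optimal peaks.

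Regions were joined to Ensembl release 115 gene models and the RefSeq sequence of the same assembly with Python 3.11.15, NumPy 2.4.6 and SciPy 1.17.1. Coordinates count from 1. No test between genes was run, and the main counts stand beside those over all coding genes. Counts split by neighbouring coding gene, chromosome or hosted snoRNA gene were not made over all coding genes. Genes were named by rule: every member with an optimal peak, the 6 strongest without one, members with no pooled region, members beside a snoRNA gene, genes that share a peak, up to 4 bound genes per other list, ubl-5, rpl-24.2 and T23F11.4. Members and lists were chosen with earlier results of these data known. On simulated summits, 200 of 200 planted near the starts of genes drawn from the 19973 were recovered. The same distance of 1000 bp was used for planting and search, so this checks only the code.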

Additional observations from a re-analysis of the deposited data

How the results depend on the processing

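Of 30 alternatives run over 6 results, 23 left the value within 1.5 times (counts) or within the spread between replicates (medians). A reversed direction could be scored only for the position of the summits, and none was seen there. With summits within 200 bp of a start, 3 of the 82 genes had an optimal peak, against 0.701% of all coding genes. A pooled region was that close at 20 of the 82 (against 18.7%), and median signal was 68.7. Among the strongest regions of both replicates was 1 of the 82 (against 0.355%). Most of the family's summits lie farther upstream. With the region of the nearest summit the median was 63.5, against 47.5 for all coding genes, a choice that by construction cannot raise a gene's value. Within 200 bp and 1000 bp of a snoRNA or tRNA gene lay 1 and 4 optimal summits of the family. The number of genes with an optimal peak was 12 within 500 bp and 14 within 2000 bp, 9 with only the nearest coding gene or the 317 strongest peaks, and 12 without ubl-5 and rpl-24.2. Without replicate 1 it was 12 and without replicate 2 11, using the 635 strongest regions of the other. No paired analysis was possible because there is 1 group. Depth is unknown, and 2 replicates give only a poor measure of the variation between embryo collections.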
